A study of Drosophila melanogaster with 3 samples.

Results

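Chro, BEAF-32, CTCF, Cp190, su(Hw), mod(mdg4), Trl and Dref are 8 Drosophila genes that encode insulator and promoter architectural proteins, and their binding by the repressor E(spl)mgamma-HLH is described here. They are 8 of the 13945 protein-coding genes on the 6 main chromosome arms. The list was selected on a measured value, because a promoter peak of Chro is among the 10 highest of the experiment. The rank of Chro is therefore a description and is not counted as a result, and the main counts of genes and peaks are also given without Chro. Motif shares and GC content include the Chro peak. The other 7 genes are described whatever their values, but the list was drawn up with earlier results of these data known. All peaks with a summit in the gene body or within 1 kb upstream were collected from 5 peak lists.

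Chromatin immunoprecipitation with sequencing was done on whole embryos of both sexes at 0 to 16 hours, in 3 biological replicates that form 1 group. The transgenic line stably carries E(spl)mgamma-HLH with GFP at the C terminus, and the antibody was against GFP, so the values concern the tagged protein. The labels give no promoter for the transgene. A matched control named in the labels was not analysed here, and no group was compared with another. Peaks from whole embryos are a mixture over all cells and over 16 hours of development, so bound cells of different types or ages cannot be told apart. RNA was not measured.

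E(spl)mgamma-HLH is a basic helix-loop-helix repressor that Notch signalling induces from the Enhancer of split complex. The Hairy/E(spl) family to which it belongs recruits the co-repressor Groucho and is known for blocking neural fate. Architectural proteins are a different class: sequence-specific zinc finger or BED finger proteins bind insulators, domain borders and the promoters of housekeeping genes, and BTB-domain or chromodomain cofactors join them there. In this set su(Hw), CTCF, BEAF-32, Dref and the GAGA factor encoded by Trl read DNA, while Cp190, mod(mdg4) and Chro encode partners that are recruited.

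Stretches at the summits that carry the results are printed here from the RefSeq genome in dm6 coordinates, 5′ to 3′ on the minus strand, the strand of the member genes shown. The neighbours Ssl1 and CG4338 are on the plus strand. Capitals mark matches to CGATA (the element named for BEAF-32), TATCGATA (named for DREF) or AGNNGGCGC (a core of the CTCF motif), on either strand. The Chro peak is shown by the 30 bases around its CGATA match (chr3L:22878879-22878908) and by the 104 bases between its first start site and that of Ssl1 (chr3L:22878985-22879088). Cp190 is shown by the 280 bases between its start site and that of CG4338, which hold the summit (chr3R:15275242-15275521), and by 30 bases across its own start site (chr3R:15275227-15275256). For CTCF (chr3L:7356446-7356546), Dref (chr2L:9967238-9967338) and the highest Trl peak (chr3L:14759453-14759553) the summit and 50 bases on each side are given. For mod(mdg4) the 120 bases between the divergent start sites beside its summit are given (chr3R:21365489-21365608).
Chro, CGATA match: ttagtttaaagcTATCGacaggcaatacac
Chro to Ssl1: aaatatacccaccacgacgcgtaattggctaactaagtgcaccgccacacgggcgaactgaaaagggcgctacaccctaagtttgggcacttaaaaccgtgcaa
Cp190 to CG4338: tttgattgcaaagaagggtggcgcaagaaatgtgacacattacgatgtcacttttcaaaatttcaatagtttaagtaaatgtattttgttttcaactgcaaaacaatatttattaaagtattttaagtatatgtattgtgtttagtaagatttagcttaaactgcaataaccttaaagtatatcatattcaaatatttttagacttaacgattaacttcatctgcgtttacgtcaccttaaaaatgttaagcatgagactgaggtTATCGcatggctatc
Cp190, start site: TATCGcatggcTATCGATAgctgccgagcg
CTCF: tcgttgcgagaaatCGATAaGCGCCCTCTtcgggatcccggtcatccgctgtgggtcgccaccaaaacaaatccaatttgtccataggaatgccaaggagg
Dref: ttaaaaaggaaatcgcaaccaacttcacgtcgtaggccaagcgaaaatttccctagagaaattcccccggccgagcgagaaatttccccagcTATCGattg
Trl: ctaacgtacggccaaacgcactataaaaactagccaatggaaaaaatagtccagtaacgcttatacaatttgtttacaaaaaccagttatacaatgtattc
mod(mdg4): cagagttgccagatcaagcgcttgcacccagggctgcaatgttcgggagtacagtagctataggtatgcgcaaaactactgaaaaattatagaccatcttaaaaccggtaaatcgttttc

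Reproducible peaks were found at 7 of the 8 genes, and at 6 of the 7 genes other than Chro, while 26.4% of all protein-coding genes had one by the same count (3680 of 13945). The reproducible set is the authors' list of 4524 peaks derived by the irreproducible discovery rate (IDR), and 12 of its peaks fell to the 8 genes. A peak of the set need not rank high in every replicate: its lowest ranked 21150, 2750 and 6310 in replicates 1, 2 and 3. The gene without a reproducible peak was su(Hw). The 8 genes have longer territories (body plus 1 kb) than most, with a median of 5472.5 bp against 3166 bp for all protein-coding genes. Among the 6222 genes with a territory in the members' range of 3162 to 27556 bp, 34.3% had a reproducible peak. The share of members was above both backgrounds, and no test was made because the list was picked with results known.

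The same count could be made in each replicate, with the 4524 peaks of highest signal of a replicate taken as its top peaks. In replicate 1, 7 of the 8 genes had a top peak, and 6 of 7 without Chro, against 26.7% of all genes. Replicate 2 gave the same counts of 7 and 6, against 25.0%, and so did replicate 3, against 26.5%. The 7 genes were not the same ones throughout: in replicate 2 su(Hw) had a top peak and CTCF had none. In the pooled list, called on all 3 replicates together, all 8 genes, and so all 7 other than Chro, had a peak with a q-value below 0.05, against 37.9% of all genes.

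**Figure D1:**
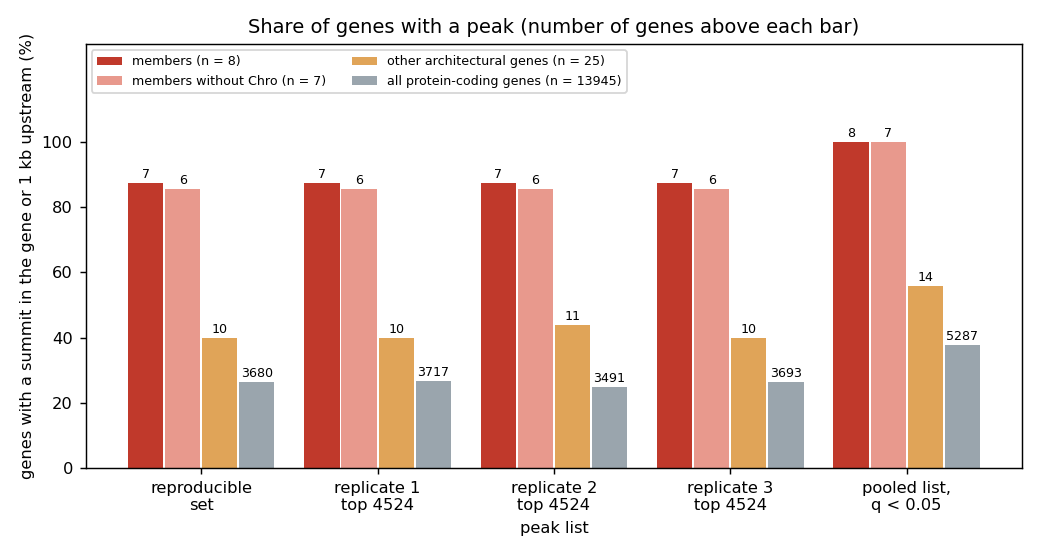
Share of genes with a peak summit in the gene body or within 1 kb upstream (y axis, percent) in the 5 peak lists (x axis), for the 8 members, the 7 members without Chro, 25 other architectural protein genes and all 13945 protein-coding genes, with the number of genes above each bar. The members stood at 7 or 8 of 8 in every list, and at 6 or 7 of 7 without Chro, while all genes stood between 25.0% and 37.9%.

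Within the reproducible set the best peaks of the 7 genes had ranks between 5 and 3035 of 4524, where rank 1 is the highest signal. Chro, Trl, Cp190 and mod(mdg4) had best peaks of rank 5, 58, 137 and 140. Dref, BEAF-32 and CTCF followed at ranks 1392, 1527 and 3035. Without the Chro peak, whose rank chose the list, the 11 other member peaks had a median rank of 1392, against 2265.5 for the 4512 other reproducible peaks. Of these 11 peaks 5 belong to Trl, the genes were listed with results known, and the difference was not tested.

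**Figure D2:**
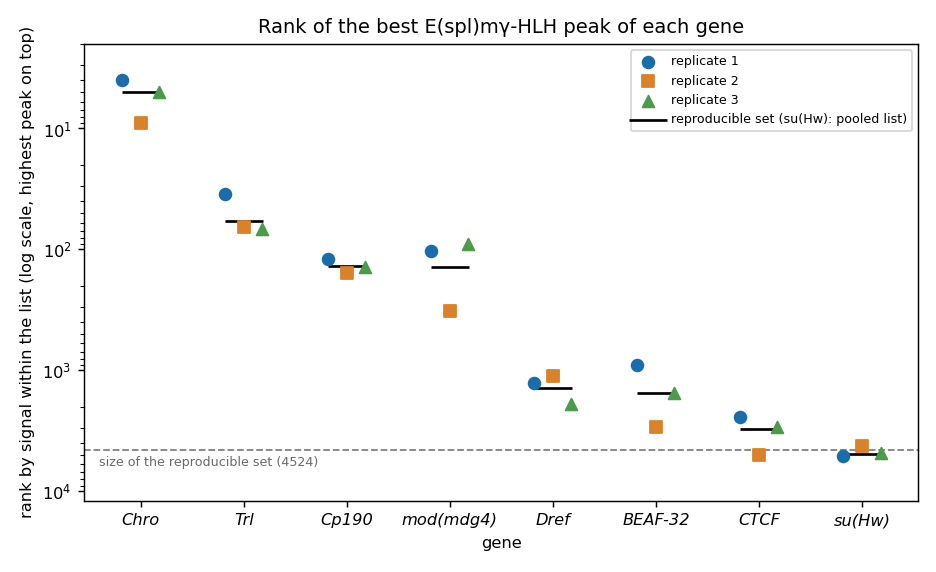
Rank by signal (y axis, log scale, highest peak on top) of the best peak of each gene (x axis) in replicates 1, 2 and 3 (points) and in the reproducible set (bars; the pooled list for su(Hw)). The dashed line marks rank 4524, the size of the reproducible set; Chro, Trl, Cp190 and mod(mdg4) keep to ranks up to 321 in each replicate, while CTCF in replicate 2 and su(Hw) in replicates 1 and 3 lie past the line.

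Chro, also called Chromator, encodes a chromodomain protein of interbands and domain borders. The gene (FBgn0044324) lies at chr3L:22873702-22878984 on the minus strand and has 5 annotated transcripts from 3 start sites. Its peak, whose height chose the list, had a signal of 2315.76 in the reproducible set. In replicates 1, 2 and 3 it ranked 4, 9 and 5, with signals of 868.854, 677.582 and 778.107. Signals are the authors' peak values and are not scaled between lists, so only ranks are set side by side. Just inside and just outside the limit of 10 stood peaks near CenG1A (rank 10, signal 2091.24) and near mRpL41 (rank 11, signal 2079.13).

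The Chro summit was placed almost identically in every replicate, within a range of 9 bp. It lay in the 5′ UTR, 108 bp downstream of the first start site of Chro and 108 bp upstream of the second. The start site of Ssl1, which encodes a subunit of the general transcription factor TFIIH, lies on the other strand 105 bp from that of Chro and 213 bp from the summit. The only CGATA match in the summit window was 16 to 20 bp upstream of the summit, inside the 30 bases printed above. No further reproducible peak was listed at Chro, although its replicate 2 list held a weaker one of rank 7442 at the third start site.

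Cp190 encodes a BTB and zinc finger cofactor that DNA-binding insulator proteins recruit. The gene (FBgn0000283, chr3R:15270432-15275241, minus strand) had 1 reproducible peak, of rank 137 and signal 782.364. Replicates 1, 2 and 3 gave ranks of 119, 157 and 139, a mean of 138 ± 19.0 (SD, n = 3). Signals were 287.992, 260.009 and 255.314. All replicates thus agree on a high rank, and no member peak other than that of Chro and that of Trl was higher in the set.

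The Cp190 summit sat between 2 genes, 113 bp upstream of Cp190 and 168 bp upstream of CG4338 on the other strand, with the start sites 281 bp apart. Replicate 1 placed the summit 32 bp downstream of that position, while replicates 2 and 3 placed it 38 and 28 bp upstream, toward CG4338. Within this spread the peak cannot be given to either gene alone. The window at the summit had a GC content of 21.8%, the lowest of the 12 member windows. TATCGATA, the element named for DREF, lay 109 to 116 bp downstream of the summit and spanned the annotated start site of Cp190, and it was the only such match in any member peak.

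mod(mdg4) encodes a family of BTB proteins with different zinc finger ends, 1 of which joins su(Hw) at gypsy insulators. The gene (FBgn0002781, chr3R:21350846-21377401, minus strand) is 26556 bp long, with 22 annotated transcripts that share 1 start site. Part of its transcripts are joined by trans-splicing from separate precursors, which the annotation lists as 23 pre-mod(mdg4) genes, 9 of them on the opposite strand. Its reproducible peak had rank 140 and a signal of 776.138. In replicates 1, 2 and 3 it ranked 104, 321 and 90, with signals of 306.341, 189.14 and 292.697. Replicate 2 was the lowest of the 3, and the mean rank was 172 ± 130 (SD, n = 3).

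That peak was not at the start of mod(mdg4) but 11916 bp into the gene. Its summit lay 3 bp inside pre-mod(mdg4)-E, a precursor on the same strand, and precursors of the opposite strand begin 121 bp from the start of pre-mod(mdg4)-E. The replicate summits kept to this site within 22 bp. A weaker peak missed the reproducible set. It stood at rank 5012 of the pooled list with a signal of 105.294, 37 bp upstream of the shared start of the precursors pre-mod(mdg4)-N, AA and O. It ranked 3692, 7160 and 5679 in replicates 1, 2 and 3, so only replicate 1 held it among its top peaks. No reproducible summit lay within 500 bp of the own start site of mod(mdg4).

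Trl encodes GAGA factor, which binds GAGAG repeats at promoters and at some insulators. The gene (FBgn0013263, chr3L:14747929-14761049, minus strand) has 10 transcripts from 4 start sites. It held 5 reproducible peaks, while 0.688% of all protein-coding genes held 5 or more (96 genes). That share is over genes of all lengths, with a median territory of 3166 bp, and was not counted for genes as long as Trl. It also rests on counting the Trl peaks of ranks 1223 and 2254 apart, which the same peak matched in replicates 2 and 3. Replicates 1, 2 and 3 held 5, 6 and 4 top peaks in Trl. Per kb of its 14121 bp territory Trl held 0.354 peaks. BEAF-32, whose territory is the shortest of the 8, held 0.633, and mod(mdg4), whose territory is the longest, held 0.0363.

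The highest Trl peak ranked 58 in the set, with a signal of 1181.7. Replicates 1, 2 and 3 gave ranks of 35, 65 and 68 and signals of 477.822, 358.174 and 347.072. It lay in an intron, 1546 bp downstream of the first start site and 1541 bp upstream of another that Trl shares with CG42507. Of the best peaks of the 7 genes, those of Trl and mod(mdg4) were the ones more than 500 bp from an own start site. The other Trl summits fell in the 5′ UTR (rank 359) and in introns (ranks 1223, 2254 and 2294). Those of ranks 359, 1223 and 2254 also lie in CG42507, a protein-coding gene on the same strand.

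The rank 359 peak of Trl ranked 390, 405 and 348 in replicates 1, 2 and 3, and lay 116 bp past the most downstream start site. The peak of rank 2294, 654 bp past the first start site, ranked 2792, 2255 and 2051. Both were thus found at like ranks in every replicate. The peaks of ranks 1223 and 2254, 1270 and 1062 bp past the most downstream start site, ranked 903 and 1917 in replicate 1. In replicates 2 and 3 the highest peak over both summits was the same one, of rank 2083 in replicate 2 and 846 in replicate 3. Replicate 3 listed a separate peak near the summit of rank 2254 as well, at rank 23532 with a q-value of 0.941. Replicate 2 also had top peaks of ranks 4041 and 4209 in Trl that had no counterpart in the reproducible set.

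**Figure D3:**
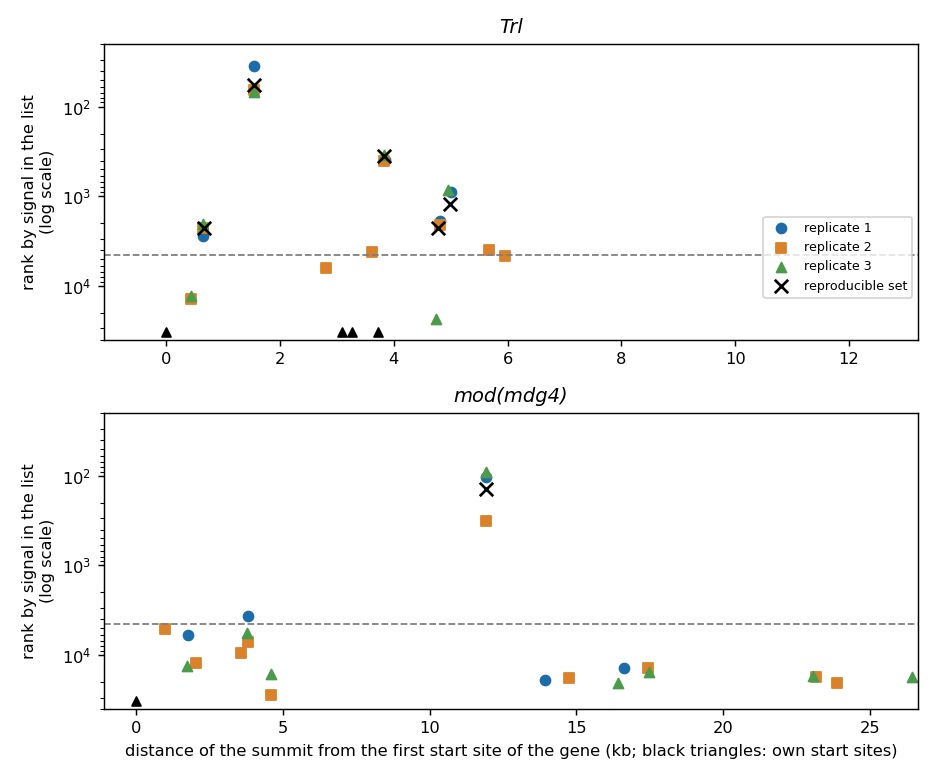
Rank by signal within its list (y axis, log scale) of every listed peak against the distance of its summit from the first start site (x axis, kb) at Trl (upper panel) and mod(mdg4) (lower panel), for the 3 replicates and the reproducible set. The 5 reproducible peaks of Trl lie in the first 5 kb of the gene, and the 1 reproducible peak of mod(mdg4) lies 11916 bp in, far above all other peaks of that gene.

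Dref encodes the BED finger protein that binds TATCGATA at promoters of replication and housekeeping genes. The gene (FBgn0015664, chr2L:9964147-9967229, minus strand) had a reproducible peak of rank 1392 and signal 269.671. In replicates 1, 2 and 3 it ranked 1266, 1116 and 1906, with signals of 98.7163, 106.139 and 68.9211. Its rank thus stayed in the same part of every list, with a mean of 1429 ± 420 (SD, n = 3). The summit was 59 bp upstream of Dref and 25 bp upstream of RpL13, a ribosomal protein gene on the other strand whose start site is 84 bp away. The summit was nearer to RpL13, as in replicates 2 and 3, while replicate 1 placed it 20 bp inside Dref. At these distances the peak cannot be given to either gene alone. The window had a CGATA match 42 to 46 bp downstream of the summit and no TATCGATA.

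BEAF-32 encodes a boundary element factor that binds clustered CGATA elements, often between divergent housekeeping genes. The gene (FBgn0015602, chr2R:14770469-14772630, plus strand) had 2 reproducible peaks within its short body and promoter. The higher one ranked 1527, with a signal of 255.353, and lay 51 bp upstream of the first start site. It ranked 901, 2961 and 1545 in replicates 1, 2 and 3, with signals of 121.262, 58.2357 and 79.4326. Replicate 2 was the lowest, and the mean rank was 1802 ± 1054 (SD, n = 3).

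The lower BEAF-32 peak ranked 4140, near the end of the reproducible set, and lay in the 5′ UTR, 62 bp upstream of the third start site. It ranked 4139, 4154 and 5430 in replicates 1, 2 and 3, so replicate 3 did not hold it among its top peaks. Replicate 3 instead listed a peak of rank 2458 124 bp past the second start site, which the reproducible set does not hold. Both reproducible summits also lie in an exon of the antisense noncoding RNA CR42254. Neither window of 50 bp on each side of the summit held CGATA, the element of BEAF-32 itself. Over the whole peak, the lower one held 1 CGATA match and the higher one held none.

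CTCF encodes the fly homologue of the vertebrate zinc finger insulator protein. The gene (FBgn0035769, chr3L:7353578-7356713, minus strand) had 1 reproducible peak, of rank 3035 and signal 158.425. Ranks in replicates 1, 2 and 3 were 2435, 5053 and 2967, with signals of 65.282, 39.7624 and 49.8043. In every replicate the peak ranked below the best peaks of the other members with a reproducible peak, and in replicate 2 it lay outside the top peaks. Its summit was 217 bp downstream of the start site, in the first intron and in an exon of the antisense noncoding RNA CR45822. The window held AGNNGGCGC 22 to 30 bp upstream of the summit, with CGATA beside it at 32 to 36 bp upstream.

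su(Hw) encodes the zinc finger protein that binds the gypsy insulator, and it had no peak in the reproducible set. The gene (FBgn0003567) lies at chr3R:14304455-14308589 on the minus strand. Its best pooled peak ranked 4943, with a signal of 106.79, while the lowest reproducible peak had a signal of 114.425. In replicates 1, 2 and 3 it ranked 5142, 4256 and 4812, with q-values of 0.0339, 6.69e-05 and 0.00135. All 3 lists thus held it with a q-value below 0.05, though only replicate 2 held it among the top peaks. The pooled summit was 405 bp upstream of su(Hw) and 95 bp upstream of Polr2I, an RNA polymerase II subunit gene on the other strand. Between the members just inside and just outside the reproducible set, the BEAF-32 peak of rank 4140 had a signal of 123.866 and the su(Hw) peak 106.79.

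**Figure D4:**
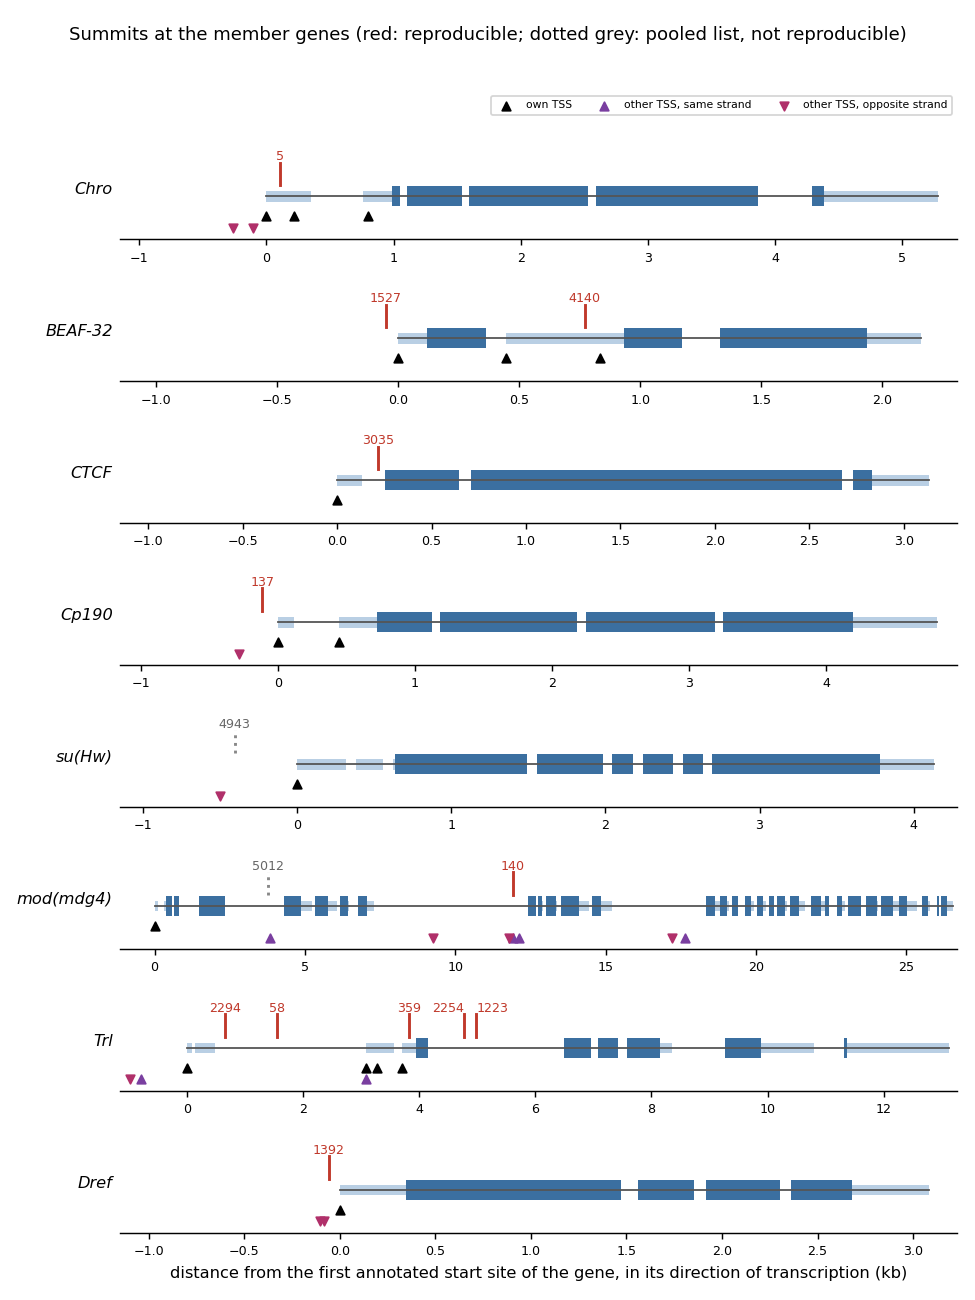
Models of the 8 genes drawn in the direction of transcription (x axis, distance from the first start site in kb; light boxes, exons; dark boxes, coding sequence), with reproducible summits as red lines and pooled summits missing from that set as dotted grey lines, each with its rank. Triangles mark start sites of the gene and of its neighbours; the summits of Chro, Cp190, Dref and BEAF-32 lie beside start sites, while those of mod(mdg4) and most of Trl lie inside the gene.

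Relative to start sites, 6 of the 8 genes had a reproducible summit within 500 bp of an own start site, against 20.2% of all protein-coding genes. A promoter peak of Chro was part of the choice, and without Chro the count was 5 of 7. The best summit was nearest to a start site of the gene itself at 5 genes: Chro, BEAF-32, CTCF, Cp190 and Trl. Without Chro these were 4 of 7. The start site nearest to the best Trl summit is shared with CG42507, and it was counted for Trl. At Cp190 the summits of replicates 2 and 3 were nearer to CG4338. At Dref and mod(mdg4) the best summit was nearest to RpL13 and to pre-mod(mdg4)-E. Of all 13945 protein-coding genes, 3067 had a reproducible summit, best or not, nearest to a start site of their own. Over peaks without that of Chro, 7 of the 11 member summits (63.6%) lay within 500 bp of any protein-coding start site, against 2142 of the 4512 other reproducible summits (47.5%).

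Divergent start sites recurred among the member peaks. The summits at Chro, Cp190, mod(mdg4) and Dref lay at a pair of protein-coding start sites on opposite strands with a gap of at most 500 bp. Without Chro these were 3 of 11 member summits (27.3%), against 781 of 4512 other reproducible summits (17.3%). This count was made after the member peaks had been seen, and the difference was not tested.

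The member peaks recurred in the replicates, as did most peaks of a set chosen for agreement between replicates. All 12 had a peak over their summit in each replicate list, and so all 11 without that of Chro. Of the 4512 other reproducible peaks, 4348 had one in each list as well. Without Chro, whose rank makes it a top peak, the match was a top peak in all 3 replicates for 9 of 11 (81.8%), against 3087 of 4512 (68.4%) of the other reproducible peaks. The 9 include both Trl peaks that share a match in replicates 2 and 3. The exceptions were the CTCF peak and the lower BEAF-32 peak, each a top peak in 2 replicates. The summit positions of the 3 replicates spanned a median of 32 bp at the 11 member peaks other than that of Chro (interquartile range 18.5 to 77 bp, extremes 11 and 200 bp). At the 4348 other reproducible peaks matched in all replicates the median was 40 bp (interquartile range 22 to 71 bp). The largest spans, 200 and 145 bp, belonged to the Trl peaks of ranks 1223 and 2254, which share their match in 2 replicates.

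**Figure D5:**
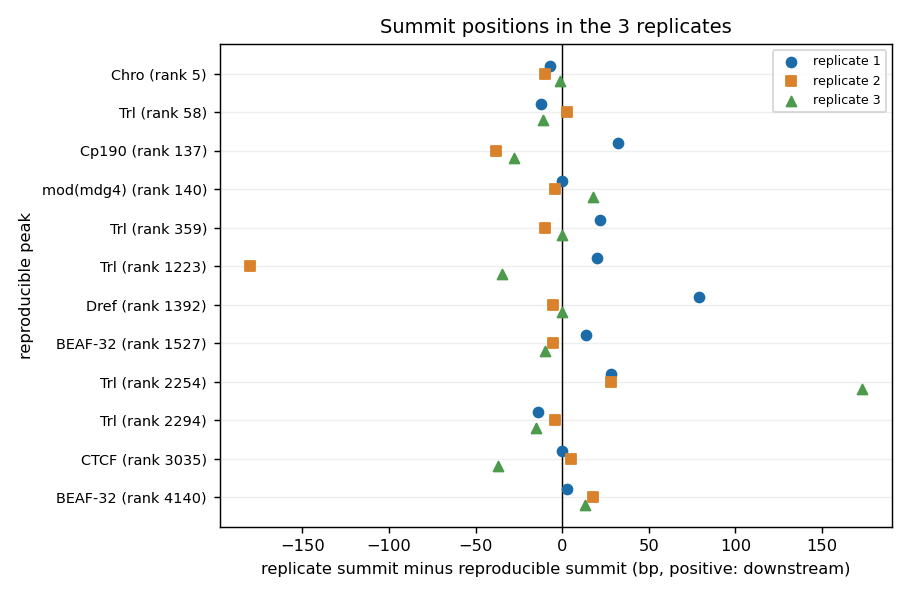
Summit of the matching peak in replicates 1, 2 and 3 relative to the reproducible summit (x axis, bp, positive in the direction of transcription) for each of the 12 member peaks (y axis, by rank). The Chro summits lie within 9 bp of each other, while those at Trl ranks 1223 and 2254 span 200 and 145 bp.

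Among the 12 windows of 50 bp on each side of a member summit, 3 held CGATA (25%): those of Chro, CTCF and Dref. The Chro peak chose the list, and of the 11 other member windows only those of CTCF and Dref held CGATA. All reproducible summits held it in 17.4% of 4524 windows, and protein-coding start sites in 23.6% of 19252. CGATA lies inside TATCGATA, which no member window held, against 1.95% of all reproducible summits and 4.48% of start sites. AGNNGGCGC was found in the CTCF window alone (8.33% of 12), against 2.32% of all reproducible summits and 0.945% of start sites. Over whole peaks CGATA was in 5 of 12, that of Chro among them, against 40.4% of all reproducible peaks. AGNNGGCGC was in 2, at CTCF and at the highest Trl peak, against 4.95%. Single matches in so few windows are a description and no test was made.

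None of the 12 windows held GAGAG, the element of GAGA factor, including those of its own gene Trl. All reproducible summits held GAGAG in 9.86% and start sites in 12.7%. This count depends on the window: over whole peaks GAGAG was in 3 of 12, at Dref and at the Trl peaks of ranks 58 and 2294, against 34.8% of all reproducible peaks. GGTCACACT (the core promoter motif bound by M1BP) and GCATACTTT (part of the su(Hw) motif) were also found in 0 of 12, with 0.619% and 0.332% at all reproducible summits and 3.64% and 0.125% at start sites. The Hairy/E(spl) family hexamers CACGTG and CACGCG were in 0 of 12 windows, against 0.818% and 1.17% of all reproducible summits and 1.82% and 3.60% of start sites. The general E-box CANNTG, of which CACGTG is a form, was in 2 of 12 (16.7%), at the Trl peaks of ranks 2254 and 2294, against 35.1% of all reproducible summits and 43.7% of start sites. Over whole peaks CANNTG was in 9 of 12, against 76.1% of all reproducible peaks, and CACGCG in 1, at mod(mdg4), against 6.26%. All motifs were sought on both strands, and a missing match says only that these letters are not in the window.

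The GC content of the member windows, that of Chro included, was 38.5% ± 8.77 (SD over 12 windows), against 34.7% ± 8.81 at all reproducible summits and a mean of 43.7% at start sites. It ranged from 21.8% at Cp190 to 53.5% at CTCF. Base composition sets how often short motifs occur, and its part in the shares above was not tested.

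Of 25 further genes of architectural and promoter-binding proteins, 10 (40%) had a reproducible peak, against the 26.4% of all protein-coding genes and the 34.3% of genes with territories in the members' range. Their median territory was 5212 bp (range 1775 to 60393 bp), and their 40% is not far from that 34.3%. No share was counted for genes with territories in their own range. They were listed with earlier results of these data known, and no test was made. The highest was at JIL-1, a kinase that interacts with the Chro protein, with rank 274 and ranks of 539, 173 and 317 in replicates 1, 2 and 3. That summit lay 7067 bp into the gene, and JIL-1 held 4 reproducible peaks in all.

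Next came M1BP (rank 606), which binds core promoters, Cap-H2 (rank 740), a condensin II subunit, and lolal (rank 884), a BTB protein that works with GAGA factor. psq, another BTB factor of GAGA sites, followed at rank 1023 with 4 peaks, fs(1)h, a BET bromodomain protein, at rank 1030, and the cohesin subunit SA1 at rank 1098. pzg, a partner of Chro, ranked 1302, pita, an insulator zinc finger protein, 1984, and l(3)mbt 2939. For 9 of these 10 genes the best peak was a top peak in all 3 replicates, and the exception was l(3)mbt, which was in 1. Of the 4512 reproducible peaks other than those of the members, 3087 (68.4%) were top peaks in all 3 replicates. That share is over all peaks, while the best peak of each gene was taken here, which favours high ranks. It is therefore not a like background. No share of best summits was counted for all genes, and 5 of the 10 had the best summit nearest to a start site of their own. For M1BP, Cap-H2, fs(1)h, pzg and l(3)mbt it was nearer to CG8202, MED7, mys, CG12974 and CG5934. No reproducible peak was counted for the other 15, which include the cohesin genes vtd, SMC1, SMC3 and Nipped-B, all 3 Elba genes, and ZIPIC, Ibf1, Ibf2, dwg, insv, Clamp, Top2 and Trf2.

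Genes whose own promoter peak ranked most alike over the 3 replicates were sought among 1917 protein-coding genes, by the Euclidean distance of log10 ranks. For Chro these were ph-p (ranks 5, 12 and 4 in replicates 1, 2 and 3, distance 0.185) and Art3. For Cp190 they were Phf5a (129, 154 and 156, distance 0.0617) and CG10413. For Trl they were Atf3 and l(2)gd1, for CTCF Dpy-30L1 and Smn, and for BEAF-32 lace and CG7006. For Dref and mod(mdg4) the nearest were RpL13 and pre-mod(mdg4)-E at distance 0, because they share the very peak, and after them PNUTS and DUBAI. A like rank says nothing of shared function or control.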

How the data were processed

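Peak lists of ChIP-seq against GFP-tagged E(spl)mgamma-HLH in 3 embryo replicates (1 group) were used as deposited, in dm6. Per the deposited text records, the authors called each replicate against a control, called a pooled list on all replicates, and derived the reproducible set by the irreproducible discovery rate (IDR). No aligner, peak caller, version or IDR threshold is given in the sources used here. The deposited signal is a coverage-type value per peak, not scaled between lists. The deposited q-values are on a −log10 scale. Their p-value column was not used, nor were the dm3 lists.

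The lists held 4524 (reproducible), 20696 (pooled), 23367, 30000 and 24251 peaks (replicates 1, 2 and 3), background regions included, of which 4524, 8450, 5411, 12953 and 7087 had q below 0.05. The round length of the replicate 2 list can be a set limit. Of the reproducible peaks, 4518 are among the 4524 highest pooled peaks, so ranks in the set and the pooled list are nearly the same. No read counts were given, so depth is unknown.

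Summits (peak start plus offset) were assigned to Ensembl release 115 genes (BDGP6.54) and sequence came from RefSeq. A reproducible peak was matched to a replicate peak that covered its summit. Windows of 50 bp on each side of a summit or start site were searched for 9 motifs. The alternatives were other territories, gene models, peak sets, single and left-out replicates, matching rules and window sizes. Territory limits and the motif search were tested on simulated data with planted summits and motifs. Peak matching and the choice of the nearest start site were not tested in this way. Python 3.11.15, pandas 2.3.3, numpy 2.4.6 and matplotlib 3.10.9 were used. The members and lists were chosen with earlier results of these data known. Genes were named by rule: all 8 members, other architectural genes with a reproducible peak, the owner of a nearer start site, and the 2 genes of most similar replicate ranks per member. Genes without a peak in the second list, Ssl1, the genes at the rank limit and CG42507 were named after their values were seen.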

Additional observations from a re-analysis of the deposited data

How the results depend on the processing

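The number of members with a reproducible peak was 7 and lay between 5 (gene body alone, or the nearest protein-coding start site) and 8 (pooled list with q below 0.05) under every alternative. Without Chro it was 4 of 7 with the gene body alone, against 11.3% of all protein-coding genes. By the nearest start site it was also 4 of 7, against 22%, and in the pooled list 7 of 7, against 37.9%. A replicate was also left out, with only peaks covered by top peaks of the other replicates kept. The number of members was then 6 to 7, and 5 to 6 of 7 without Chro, against 21% to 22.9% of all genes. The 12 peaks in member territories, that of Chro included, became 7 when only summits within 500 bp of an own start site counted. They lay between 9 and 14 under the other alternatives, and between 10 and 11 with a replicate left out. The 10 other architectural genes with a peak became 5 (20%, against 11.3% of all genes) with the gene body alone and 6 (24%, against 22% of all genes) by the nearest start site, which is near that background. The share of member peaks matched by top peaks of all replicates was 83.3% (81.8% without Chro), and 50% when a reciprocal overlap of at least 50% was required. With summits within 100 bp it was 66.7%, and with every peak of q below 0.05 all were matched. The shares under these matching rules include the Chro peak, and no share of the other reproducible peaks is set beside them. TATCGATA was near the best summit of 0 members, and of 1 (Cp190) over the whole peak, and whole-peak counts of the other motifs were added after the data were seen. The cause of these differences was not tested, beyond the narrower territory or wider window itself. RefSeq gene models gave the same 7 members and 12 peaks.

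The data hold 3 replicates of 1 group with no control list and no read counts, so depth and background cannot be set against the peaks, and no interval can be given. Ranks from lists of different length show no change of binding. Promoter peaks between close divergent genes cannot be given to either gene.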
